A study of Homo sapiens with 24 samples.

Results

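Newly made RNA was compared between 2 U2OS cell lines over 4 times of dexamethasone treatment, and this account describes the genes that followed the line whatever the time. U2OS is a human osteosarcoma line. The SoF line expressed the glucocorticoid receptor (GR) with the K492A substitution, made to lower RNA binding. Per the study, K492A also lowers DNA binding, to a lesser degree. The Ctrl line expressed GR with the R470A substitution, chosen to match that loss of DNA binding while RNA binding stays at the wild-type level. All 8 SoF libraries and all 8 Ctrl libraries were taken by their labels, which makes 16 of the 24 libraries of the series. The other 8 are from a line expressing wild-type GR (wt), and their values stand beside the results where they help. In every line GR was fused to HaloTag, which can be stained with a fluorescent ligand, and was driven by a CMV promoter from an integrated PiggyBac vector with puromycin resistance. The endogenous receptor gene was still present. Cells were kept in charcoal-stripped serum and were given dexamethasone at 100 nM, lasting 1, 2 or 3 h, or 0.01% ethanol as the 0 h group, with 2 libraries for each line and time. All dishes received 200 µM 4-thiouridine for 1 h, which enters RNA during transcription and allows the labelled RNA to be purified (4sU-seq). Each line was 1 sorted stable pool, so the substitution and the pool cannot be told apart. The sources used here do not say whether replicates came from separate cultures. Per the study's methods, labelled RNA was purified in pairs of replicates, so the spread between replicates may leave out variation from that step. The p-values therefore measure the spread between these libraries, which may be technical.

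GR is a nuclear receptor that is held by HSP90 and its cochaperones until it binds a glucocorticoid. Dexamethasone, a synthetic glucocorticoid, moves it into the nucleus, where it binds DNA and raises or lowers transcription of target genes such as FKBP5, TSC22D3 and PER1. In bone-derived cells glucocorticoids are known for lowering matrix and inflammatory genes. A comparison with time as a blocking factor asks a different question from the hormone response: which genes differ between the lines before and during treatment alike.

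Exon counts per library summed to between 9056350 and 13410755 in SoF and between 8106036 and 15060777 in Ctrl. Mitochondrial genes took 3.62% to 4.93% of counts in SoF and 4% to 4.81% in Ctrl, and replication-dependent histone genes took 0.894% to 2.09% and 1.09% to 2.22%. The osteoblast markers RUNX2, ALPL, COL1A1 and SPARC were present in both lines, while SP7 and IBSP lay under 0.1 CPM (counts scaled to a common library total) at the median in each. COL1A2 and BGLAP were also low, at medians of 0.247 and 0.824 CPM in SoF and 0.284 and 0.94 CPM in Ctrl. The 8 osteoblast markers summed to 620 to 964 CPM in SoF and 761 to 1426 CPM in Ctrl, mostly COL1A1 and SPARC. The 5 blood markers summed to 0.431 to 2.46 CPM in SoF and 0.365 to 1.4 CPM in Ctrl, with HBB at 0 in every library, and the 3 muscle markers reached at most 1.07 and 2.79 CPM. The 4 neural markers summed to 35.4 to 85.5 CPM in SoF and 40.9 to 78.6 CPM in Ctrl, mostly SNAP25.

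NR3C1 (ENSG00000113580.15, chromosome 5), the gene of GR itself, was read first, with reads of the endogenous and the introduced copy counted together. Its level lay between 1130 and 6455 CPM in SoF (median 2237) and between 1649 and 7843 CPM in Ctrl (median 2889), against 335 to 1619 CPM in wt. The SoF and Ctrl ranges overlapped over all times, and in both lines the level was highest at 1 h and lowest at 3 h. At 0 h the SoF libraries held 2887 and 2505 CPM and the Ctrl libraries 3241 and 3538. At 3 h they held 1130 and 1133 in SoF against 1781 and 1649 in Ctrl. With time in the model NR3C1 was 1.29-fold lower in SoF, a log2 difference of -0.36 (SE 0.08, and a Benjamini-Hochberg adjusted p of 0.00591 by the quasi-likelihood test of edgeR). The call was lost without the 8 replicate 2 libraries, at a log2 difference of -0.22. Receptor RNA thus moved with the line, and its part in the other differences was not tested. These levels are of labelled RNA and not of protein. The study chose sorted cell fractions so that nuclear GR protein after dexamethasone matched between lines by immunofluorescence.

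With time in the model, 2779 of 20099 genes tested (13.8%) differed between SoF and Ctrl at an adjusted p under 0.05, and such genes are called here. Of these, 1352 (6.73%) were higher in SoF and 1427 (7.1%) were lower. With scaling by library totals in place of TMM factors, which correct for differences in RNA composition, 63.3% of the calls were higher in SoF against 48.7% in the main fit, while the median log2 difference of all genes moved from -0.00 to 0.05. Most differences were small. The median absolute log2 difference of called genes was 0.41, a fold of 1.33, and 190 genes (0.945%) reached a log2 difference of 1, of which 121 (0.602%) were higher and 69 (0.343%) lower in SoF. Those 190 were low in abundance. Their median level was 2.74 CPM among the higher and 2.45 CPM among the lower genes, against 14.6 CPM for all genes tested, and long noncoding RNAs (lncRNAs) made up 33.9% and 21.7% of them against 19.1% of all.

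The sign of most called differences was shared by the times. Among called genes, 2697 of 2779 (97%) had the same sign at 0, 1, 2 and 3 h, against 40.5% of all genes tested, although the same 16 libraries made the calls. The median difference of the 1352 higher genes was 0.40, 0.46, 0.44 and 0.42 at 0, 1, 2 and 3 h, and that of the 1427 lower genes was -0.36, -0.44, -0.41 and -0.34. In 1138 genes (5.66%) the 2 SoF libraries lay on one side of the 2 Ctrl libraries at every one of the 4 times, above it in 561 (2.79%) and below it in 577 (2.87%). In 252 genes (1.25%) all 8 SoF libraries lay on one side of all 8 Ctrl libraries, and 153 of these (0.761%) were higher and 99 (0.493%) lower in SoF. Each of the 252 was also called.

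Tested at single times with 2 libraries a line and the spread estimated over all 16, 74, 73, 88 and 154 genes were called at 0, 1, 2 and 3 h (0.368%, 0.363%, 0.438% and 0.766%). Higher in SoF were 53 (0.264%), 56 (0.279%), 65 (0.323%) and 120 (0.597%) of them, and lower were 21 (0.104%), 17 (0.0846%), 23 (0.114%) and 34 (0.169%). Leaving out a library moved these counts by over 1.5 times for each of the 16 libraries except SoF 0 h replicate 1, Ctrl 0 h replicate 2 and Ctrl 1 h replicate 1. The counts were then 28 to 39 at 0 h, 32 to 41 at 1 h, 23 to 43 at 2 h and 56 to 72 at 3 h.

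Genes were named by a rule: called, with a symbol, a mean of at least 1 CPM and no overlap between the 8 SoF and 8 Ctrl libraries, the 10 with the largest difference in each direction. The foremost of these were read in one line and at a low level in the other, and they went both ways. ZNF154 (ENSG00000179909.16, chromosome 19, 57696275 to 57709204), a KRAB zinc finger gene, lay between 7.52 and 9.71 CPM in Ctrl (median 9.07) and between 0 and 0.414 CPM in SoF (median 0.0785). In all, 764 reads fell on it in the 8 Ctrl libraries and 9 in the 8 SoF libraries, and 3 SoF libraries had none. The wt libraries lay between 0 and 0.279 CPM, so that ZNF154 was read well in Ctrl and at a low level in the other two lines. The log2 difference was -6.29 (SE 0.27), with an adjusted p of 7.33e-12 by the same edgeR test. The 5 tested genes within 60 kb of it differed by -0.03 to 0.14, and none of them was called in the same direction.

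ZNF597 (ENSG00000167981.7, chromosome 16, 3432414 to 3443504), another zinc finger gene, went the other way. It lay between 6.21 and 9.14 CPM in SoF and between 0.289 and 0.752 CPM in Ctrl, with wt at 0.737 to 1.57 CPM. Its log2 difference was 4.05 (SE 0.15), with 3.83 to 4.29 at the 4 times, and 6 tested neighbours within 60 kb differed by -0.12 to 0.13. ANXA10 (ENSG00000109511.12, chromosome 4, 168092537 to 168187736), an annexin that binds phospholipids, lay between 5.88 and 9.63 CPM in SoF and between 0.215 and 0.834 CPM in Ctrl, a log2 difference of 3.70 (SE 0.17). Its 1 tested neighbour within 60 kb was also called higher, at 0.70, and it lies in a 10 Mb window where 53.6% of genes were higher. For both genes the wt median lay between the medians of the other lines, and in ANXA10 every wt library (1.17 to 2.24 CPM) lay above every Ctrl library. For ZNF597 the SoF line was higher than wt by 2.67 and the Ctrl line differed from wt by -1.38 on the log2 scale.

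The promoters of these 3 genes are shown because the genes have the clearest states by line and because CG pairs, marked in capitals, are the sites of DNA methylation in mammals. Each is 300 bases from RefSeq on GRCh38.p14, from 250 bases before to 50 after the start of the gene, read 5′ to 3′ on the gene's strand. ZNF154 is at chr19:57709155-57709454 (minus strand), ZNF597 at chr16:3443455-3443754 (minus strand) and ANXA10 at chr4:168092287-168092586 (plus strand).
ZNF154: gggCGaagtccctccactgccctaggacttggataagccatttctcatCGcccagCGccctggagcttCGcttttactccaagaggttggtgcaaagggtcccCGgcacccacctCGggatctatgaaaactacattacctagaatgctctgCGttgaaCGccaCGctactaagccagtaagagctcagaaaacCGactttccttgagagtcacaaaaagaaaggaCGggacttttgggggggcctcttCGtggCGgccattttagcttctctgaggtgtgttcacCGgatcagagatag
ZNF597: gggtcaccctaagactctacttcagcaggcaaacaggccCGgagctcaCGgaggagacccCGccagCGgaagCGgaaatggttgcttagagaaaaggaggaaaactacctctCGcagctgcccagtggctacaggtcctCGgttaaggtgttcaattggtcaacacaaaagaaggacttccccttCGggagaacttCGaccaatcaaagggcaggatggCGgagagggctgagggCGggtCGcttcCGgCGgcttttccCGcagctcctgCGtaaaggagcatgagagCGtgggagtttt
ANXA10: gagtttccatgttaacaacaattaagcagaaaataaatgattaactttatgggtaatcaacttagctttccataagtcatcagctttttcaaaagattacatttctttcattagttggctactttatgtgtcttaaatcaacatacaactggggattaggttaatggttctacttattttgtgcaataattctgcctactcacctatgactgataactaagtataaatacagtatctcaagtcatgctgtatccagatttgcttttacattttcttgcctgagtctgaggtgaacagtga
The ZNF154 window holds 14 CG pairs, the ZNF597 window 17 and the ANXA10 window 0. Over 35116 RefSeq promoter windows the median was 14, 50.3% held at least 14, 46% at least 17, and 3.96% held none. Methylation was not measured.

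**Figure D1:**
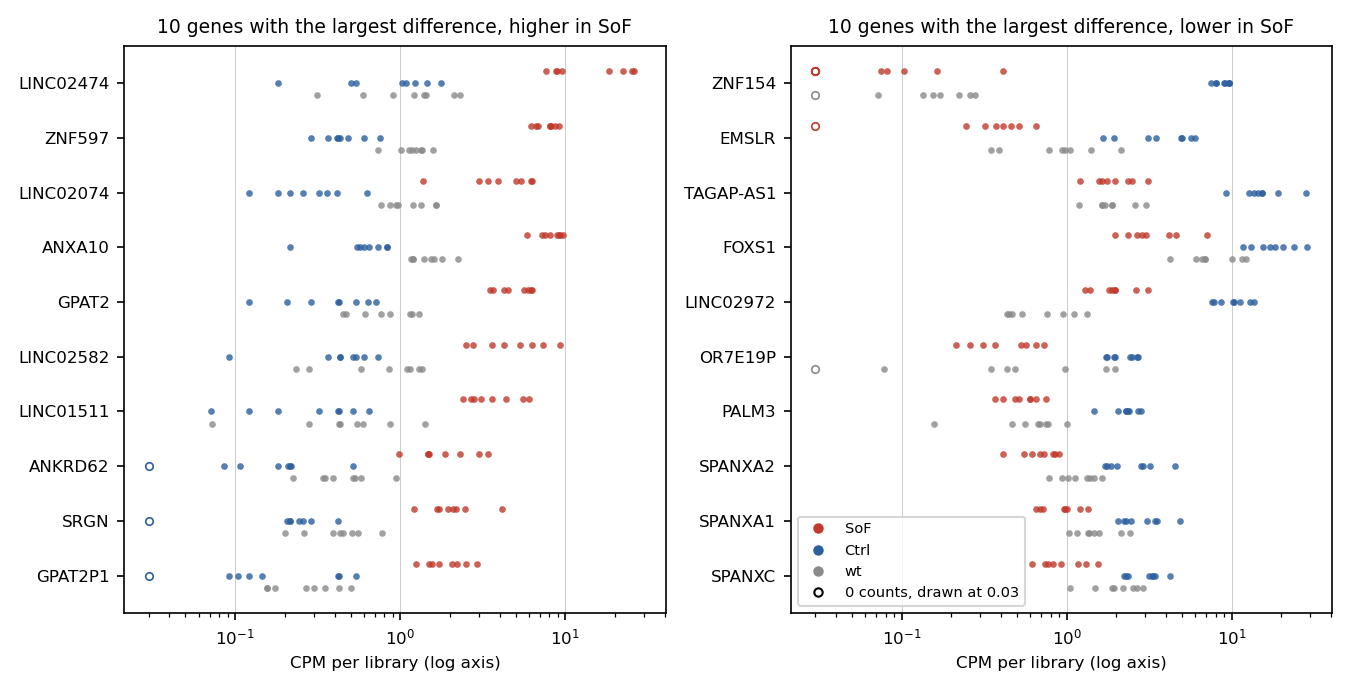
Level in CPM (log axis) of the 10 genes with the largest difference in each direction, with 1 point for each SoF, Ctrl and wt library and open circles for libraries with no count. In each of the 20 genes the 8 SoF and 8 Ctrl libraries do not overlap, and among them ZNF154 has the largest difference at -6.29 on the log2 scale.

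Most of the other genes with large differences toward SoF were lncRNAs or genes of low level. LINC02474 (chromosome 1) lay between 7.68 and 26 CPM in SoF and between 0.182 and 1.77 CPM in Ctrl, a log2 difference of 4.05 (SE 0.37). Its SoF replicate 1 libraries were the higher ones at every time, for example 26.0 against 7.68 CPM at 3 h. GPAT2, an acyltransferase of glycerolipid synthesis, lay between 3.52 and 6.31 CPM in SoF and between 0.121 and 0.716 CPM in Ctrl (log2 difference 3.52, SE 0.18). Its pseudogene GPAT2P1 differed by 3.11 (SE 0.33), and reads cannot be assigned with certainty between these near copies. SRGN, the proteoglycan serglycin of secretory granules, lay between 1.21 and 4.16 CPM in SoF and between 0 and 0.417 CPM in Ctrl. LINC02074, LINC02582, LINC01511 and ANKRD62 differed by 3.26 to 3.73 and lay under 0.8 CPM in every Ctrl library.

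Lower in SoF with a large difference were the lncRNAs EMSLR, TAGAP-AS1 and LINC02972. LINC02972 (chromosome 12) lay between 1.29 and 3.11 CPM in SoF and between 7.59 and 13.7 CPM in Ctrl, with wt at 0.433 to 1.33 CPM, a log2 difference of -2.34 (SE 0.17). TAGAP-AS1 lay between 1.21 and 3.1 CPM in SoF and between 9.21 and 28.4 CPM in Ctrl, a log2 difference of -2.96 (SE 0.18), but it overlaps TAGAP and RSPH3 on the other strand, and EMSLR overlaps IFT22 there. Only the title given to the counts says that they are stranded, so the levels of both are uncertain. FOXS1 (chromosome 20), a forkhead transcription factor gene, lay between 1.97 and 7.07 CPM in SoF and between 11.7 and 28.8 CPM in Ctrl, a log2 difference of -2.40 (SE 0.17). The wt libraries lay at 4.25 to 12.3 CPM and overlapped both lines. PALM3 and the pseudogene OR7E19P differed by -2.05 and -2.24. SPANXA1, SPANXA2 and SPANXC, testis genes of the X chromosome with near-identical copies, differed by -1.66, -1.90 and -1.61, and how their reads were shared among the copies is uncertain.

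The most abundant of the remaining genes without overlap and with a log2 difference of at least 1 included 3 genes of one stretch of chromosome 8, which were higher in SoF. SARAF (30063003 to 30083208), a regulator of store-operated calcium entry, lay between 190 and 230 CPM in SoF and between 73 and 95.4 CPM in Ctrl, a log2 difference of 1.43 (SE 0.06). LEPROTL1 (30095408 to 30177208) lay between 88.5 and 125 CPM in SoF and between 30.9 and 47 CPM in Ctrl, a difference of 1.38 (SE 0.07). HMBOX1 (28890395 to 29064764), a homeobox gene, lay between 98.2 and 166 CPM in SoF and between 49.2 and 72.7 CPM in Ctrl, a difference of 1.17 (SE 0.09). All tested genes within 60 kb of them, 2, 6 and 3 in number, were called in the same direction, at log2 differences between 1.22 and 1.73. The lncRNA LINC01029 (chromosome 18) lay between 85.1 and 202 CPM in SoF and between 25.7 and 64.4 CPM in Ctrl, a difference of 1.57 (SE 0.13). For SARAF, LEPROTL1 and HMBOX1 the SoF line was higher than wt by 1.13, 1.19 and 1.29, and the Ctrl line differed from wt by -0.30, -0.20 and 0.12 on the log2 scale.

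By the same rank MAGEA4, EFR3B, NLRP1 and C6orf15 were lower in SoF, although the SoF medians of NLRP1 (9.14 CPM) and C6orf15 (6.78 CPM) lay below the 14.6 CPM median of all genes tested. MAGEA4 (X chromosome), a cancer-testis antigen, lay between 72.1 and 127 CPM in SoF (median 80.6) and between 168 and 223 CPM in Ctrl (median 196), a difference of -1.19 (SE 0.08). NLRP1 (chromosome 17), an inflammasome sensor, lay between 5.43 and 12.3 CPM in SoF, 20.5 and 32.4 CPM in Ctrl and 7.03 and 14.2 CPM in wt. Its difference of -1.58 (SE 0.11) thus went with a Ctrl level above wt by 1.39, while SoF differed from wt by -0.19 without a call. MAGEA4 differed from wt in both lines, by -0.68 in SoF and 0.50 in Ctrl.

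Called genes were unevenly spread over the genome, which is given as a description without a test. On chromosome 3, 318 of 1061 genes tested (30%) were higher in SoF, and on chromosome 7 the share was 20%, on chromosome 8 13.4% and on chromosome 4 13.1%, against 6.73% over all genes. Genes lower in SoF made up 18.8% of those tested on chromosome 14 and 12.5% on chromosome 9, against 7.1% over all genes. In windows of 10 Mb with at least 20 tested genes, 16 of 287 had at least 40% of their genes higher in SoF and 1 had at least 40% lower, where the limit of 40% was set after the values were seen. The 16 windows held 4.4% of all genes tested and 35.7% of those called higher (482 of 1352). Outside them 4.53% of genes were called higher. The windows were picked by these same calls, so a high share inside and a lower share outside follow from the choice. The count of 16 was 10, 9 and 8 without SoF 0 h, 1 h or 2 h replicate 2, 9 without Ctrl 0 h replicate 1, 10 and 9 without Ctrl 1 h replicate 1 or 2, and 10 without Ctrl 2 h replicate 2.

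The densest windows were adjacent on chromosome 7. From 80000001 to 90000000, 15 of 20 genes (75%) were higher in SoF, with a median log2 difference of 0.54. In the next window 58 of 81 (71.6%) and in the one after it 93 of 137 (67.9%) were higher, with medians of 0.44 and 0.41. At 0, 1, 2 and 3 h the medians of the first were 0.48, 0.70, 0.54 and 0.47. Against wt these 3 windows differed by 0.45, 0.36 and 0.31 in SoF and by -0.16, -0.06 and -0.11 in Ctrl. On chromosome 3 the values against wt differed between windows. From 40000001 to 50000000, 72 of 140 genes (51.4%) were higher in SoF with a median of 0.29, and the window differed from wt by -0.09 in SoF and -0.35 in Ctrl. The window from 50000001 to 60000000 held 54 of 108 (50%) at a median of 0.33, with -0.04 in SoF and -0.35 in Ctrl. The 3 windows from 150000001 to 180000000 differed from wt by 0.16, 0.32 and 0.40 in SoF and by -0.12, -0.02 and -0.01 in Ctrl. The 3 windows of chromosome 4 from 140000001 to 170000000 had 48.6%, 51.5% and 53.6% of genes higher, and differed from wt by 0.26, 0.17 and 0.35 in SoF and by -0.04, -0.07 and -0.01 in Ctrl. The window of lower genes was on chromosome 14 from 100000001 on, with 35 of 71 (49.3%) lower at a median of -0.29. It fell below 40% without any one of 8 libraries (SoF 0 h replicate 2, SoF 1 h replicate 1 or 2, SoF 2 h replicate 2, SoF 3 h replicate 2, Ctrl 0 h replicate 1, Ctrl 1 h replicate 2 and Ctrl 2 h replicate 1), and without SoF 0 h replicate 1 there were 2 such windows.

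**Figure D2:**
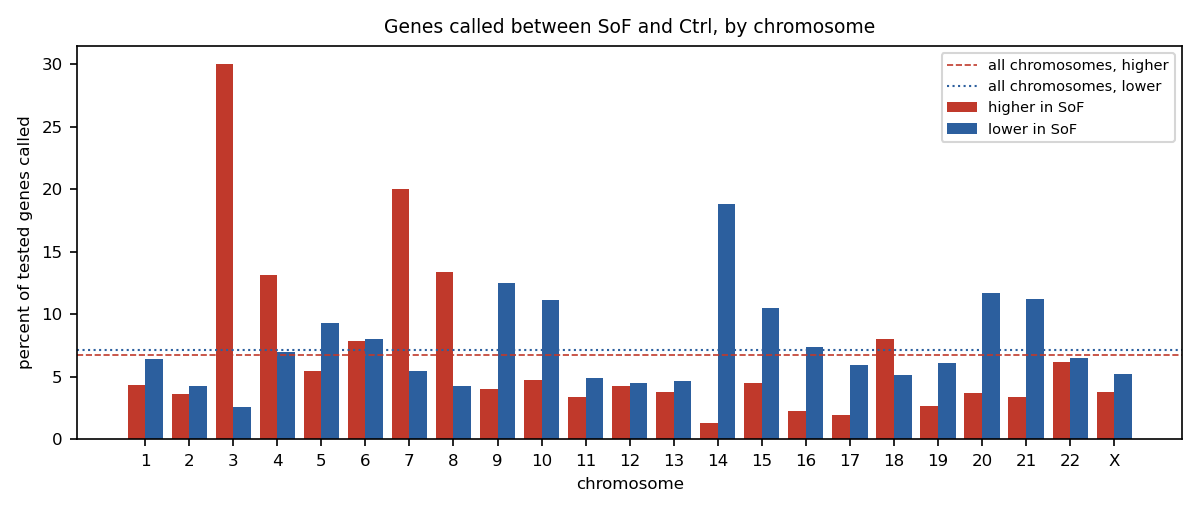
Percent of tested genes called higher (red) and lower (blue) in SoF than in Ctrl on each chromosome, with lines at the shares over all genes (6.73% and 7.1%). Chromosome 3 has the largest share of higher genes (30%) and chromosome 14 the largest share of lower genes (18.8%).

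SEMA3A (chromosome 7), a secreted axon guidance cue, lies in the densest of these windows. Its level was 5.14 to 15.7 CPM in SoF and 1.54 to 3.64 CPM in Ctrl, a log2 difference of 1.93 (SE 0.21) against the window median of 0.54. Of the 60 axon guidance genes tested, 7 were higher (11.7%) and 4 lower (6.67%), against 6.73% and 7.1% over all genes. Of the 60, 10 lay in the 16 windows of higher genes. Of the called ones, 5 lay in those windows or in the 1 window of lower genes. PLXNB1 of chromosome 3 and SLIT2 of chromosome 4 were higher by 0.62 and 0.43, and EPHB3 and EFNA5 were lower, at -0.64 and -0.45.

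Gene lists were read by function, each as the number of tested members called beside the shares over all genes (6.73% higher, 7.1% lower). No set test was run, and a count covers only the members that passed the filter on low counts. The list with the largest share of called members was that of the clustered protocadherins, adhesion proteins that give neurons their surface identity and are made from 3 arrays of variable exons on chromosome 5. Of the 53 genes counted, 49 were tested, and 40 of them (81.6%) were lower in SoF and 0 were higher. Their median log2 difference was -0.57, and it was -0.55, -0.66, -0.56 and -0.64 at 0, 1, 2 and 3 h. All 22 gamma genes were called, at a median of -0.76, with 10 of 15 alpha genes (median -0.34) and 8 of 12 beta genes (median -0.48). In 19 of them the 8 SoF libraries lay below the 8 Ctrl libraries. PCDHGB5 lay between 7.9 and 11.5 CPM in SoF and between 14.5 and 19 CPM in Ctrl, a difference of -0.89 (SE 0.09), and PCDHGA4 differed by -0.79 (SE 0.08). The other 79 genes tested in the same 10 Mb window had 7 lower (8.86%) and 3 higher, at a median of -0.01. Alpha genes share constant exons with each other, as do gamma genes, so reads there bear on many members and these members are not independent. Beta genes have no such exons. The list's median against wt was -0.45 in SoF and 0.00 in Ctrl.

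**Figure D3:**
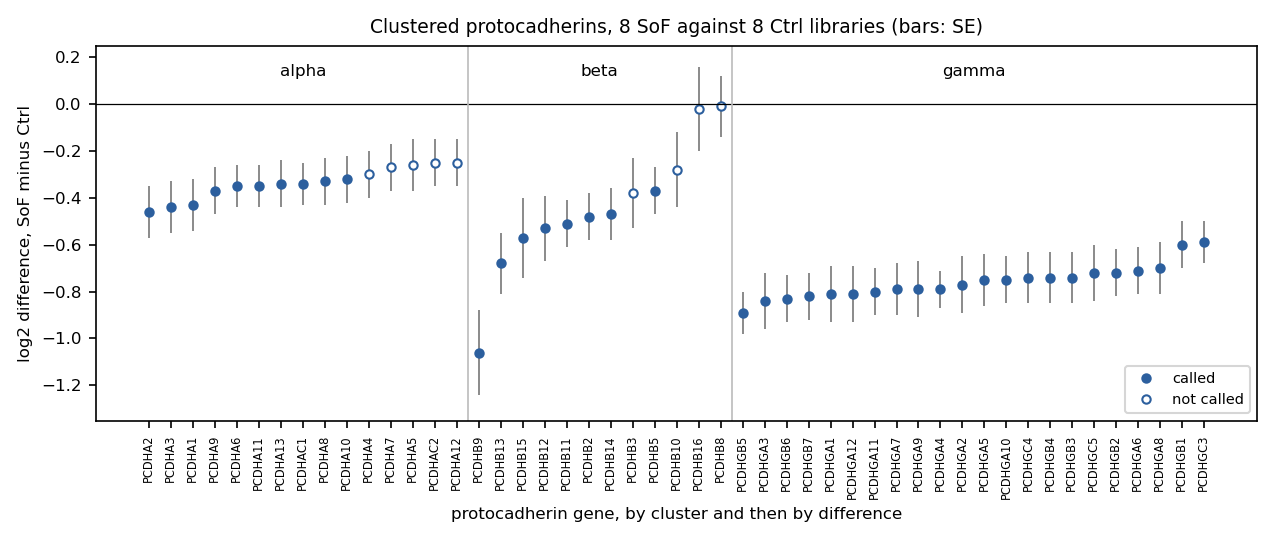
Log2 difference between SoF and Ctrl (points, with SE bars) of the 49 tested clustered protocadherins, by array and then by size, with filled points for called genes. All 49 lie below 0, the gamma array between -0.59 and -0.89.

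Glucocorticoid-induced genes were more often higher than lower in SoF, with 10 of 26 tested (38.5%) higher and 1 lower. Several members were also picked by the study on these samples, so the list is not independent evidence of its direction. The list's median difference was -0.09 at 0 h, 0.05 at 1 h, 0.46 at 2 h and 0.83 at 3 h, so that the median was largest at the later times. PDK4, a kinase that switches off pyruvate dehydrogenase, was higher in SoF at every time, with a log2 difference of 3.75 (SE 0.34). SoF differed from wt by 0.51 without a call (adjusted p 0.102 by edgeR), and Ctrl differed from wt by -3.20 (adjusted p 4.36e-08 by edgeR). PDK4 lies in the chromosome 7 window from 90000001, where 71.6% of genes were higher, and its 1 tested neighbour within 60 kb was higher by 1.05. KLF15, a transcription factor of amino acid and lipid metabolism, lay between 1.03 and 5.06 CPM in SoF and between 0.343 and 1.21 CPM in Ctrl, a difference of 2.14 (SE 0.29) with 0.95 at 0 h. IP6K3, an inositol phosphate kinase, differed by 1.18 (SE 0.15), with 0.74 at 0 h and 1.75 at 3 h. GLUL, the glutamine synthetase, went the other way with -0.96 (SE 0.25). It lay between 0.526 and 1.96 CPM in SoF, 1.3 and 2.8 CPM in Ctrl and at a median of 9.98 CPM in wt. At 0 h GLUL held 0.526 and 0.724 CPM in SoF against 1.3 and 2.19 CPM in Ctrl. By 3 h the lines overlapped, at 1.96 and 1.47 CPM in SoF against 1.63 and 1.46 CPM in Ctrl. Of 18 glucocorticoid-repressed genes, 5 (27.8%) were lower in SoF and 0 higher, among them the matrix metalloproteases MMP3 (-1.37, SE 0.20) and MMP13 (-0.84, SE 0.16) and the matrix protein gene CCN1 (-0.36, SE 0.07). MMP3 was lower at 0 h as well, at 4.86 and 6.99 CPM in SoF against 9.23 and 17.9 CPM in Ctrl.

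Of 28 genes for GR, its chaperones and its coregulators, 4 (14.3%) were lower in SoF and 0 higher. Besides NR3C1, the HSP90 genes HSP90AA1 and HSP90AB1 were lower, at -0.35 (SE 0.06) and -0.28 (SE 0.07). HSP90AA1 lies in the chromosome 14 window of lower genes, whose median was -0.29. Among 31 nuclear receptors, 4 were higher and 6 lower. NR3C2, the mineralocorticoid receptor, which binds the same hormones and DNA elements, lay between 45.9 and 55 CPM in SoF and between 27.2 and 42.8 CPM in Ctrl, a difference of 0.55 (SE 0.08). It lies in the chromosome 4 window from 140000001, where 48.6% of genes were higher at a median of 0.34. RARA, a retinoic acid receptor, differed by -0.47 (SE 0.11).

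Stress response lists went in both directions. Of 33 genes of the ATF4 and unfolded protein response, 12 (36.4%) were lower and 2 higher, at a median of -0.22. Lower were PCK2, a mitochondrial gluconeogenic enzyme (-0.73, SE 0.13, 14.8 to 31.7 CPM in SoF against 33 to 44.1 CPM in Ctrl), SLC3A2, an amino acid transporter subunit (-0.57, SE 0.08), and ALDH1L2, a mitochondrial folate enzyme (-0.45, SE 0.08). EDEM1 and DNAJB9, which act in endoplasmic reticulum protein disposal and folding, were higher by 0.34 and 0.42. Both lie in windows with many higher genes. EDEM1 is in the chromosome 3 window from 1, where 44.2% of genes were higher at a median of 0.21. DNAJB9 is in the chromosome 7 window from 100000001, where 67.9% were higher at a median of 0.41. Of 22 NRF2 targets, the oxidative stress genes, 7 (31.8%) were lower and 0 higher. SRXN1 differed by -0.70 (SE 0.11), OSGIN1 by -0.53 and NQO1 by -0.50. Of 24 p53 targets, 8 (33.3%) were higher and 2 lower, and the higher ones included TP53INP1 (0.52, SE 0.09), CCNG1 (0.37, SE 0.07) and XPC (0.31, SE 0.06). Leaving out all 8 libraries of a replicate number moved these counts by over 1.5 times. The 12 lower ATF4 and unfolded protein response genes became 19 without replicate 1 and 6 without replicate 2, the 7 NRF2 targets became 11 without replicate 1, and the 8 higher p53 targets became 5 without replicate 2. Of 16 heat shock genes 2 were lower, among them SERPINH1, the collagen chaperone, at -0.43 (SE 0.07).

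Replication-dependent histone genes leaned to lower values in SoF, with 17 of 47 tested (36.2%) lower and 1 higher, at a median of -0.28. H4C9 differed by -0.87 (SE 0.12) and H4C1 by -0.48 (SE 0.11). The gene that was higher, H4C4 (chromosome 6), lay between 9.1 and 17.6 CPM in SoF and between 1 and 1.86 CPM in Ctrl, a difference of 3.10 (SE 0.15). Histone genes have near-identical copies, which leaves the split of reads among them uncertain. The count of 17 rested on single libraries. It was 26 without Ctrl 0 h replicate 2 and 6 to 11 without any other 1 library except SoF 0 h replicate 1, SoF 3 h replicate 2, Ctrl 2 h replicate 1 and Ctrl 3 h replicate 1. Both lines were below wt at the list's median, by -0.59 in SoF and -0.36 in Ctrl. DNA replication genes had 1 of 41 higher and 4 lower, and mitosis genes 6 of 38 higher (15.8%) and 1 lower, led by ECT2 of chromosome 3 at 0.72 (SE 0.08). Of the called mitosis genes, 2 lay in 10 Mb windows with at least 40% of genes called in 1 direction.

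Matrix and bone genes went both ways. Of 28 collagens, 4 were higher and 8 lower. COL1A1, the main collagen of bone, lay between 257 and 608 CPM in SoF and between 339 and 1021 CPM in Ctrl, a difference of -0.67 (SE 0.09), and COL7A1 of chromosome 3 was higher by 0.71 (SE 0.14). Among 24 matrix proteases and inhibitors 2 were higher and 7 lower. MMP9 was lower (-1.11, SE 0.17), and ADAMTS9 of chromosome 3 was higher (0.92, SE 0.19). Among the called members, 1 collagen and 2 matrix proteases or inhibitors lay in 10 Mb windows with at least 40% of genes called in 1 direction. Of 32 matrix glycoproteins and proteoglycans 7 were higher (21.9%), led by EFEMP1 at 0.54 (SE 0.07), and 3 lower. The osteoblast list had 4 of 14 lower and 0 higher, including TNFRSF11B (-0.57, SE 0.15), the decoy receptor osteoprotegerin. Another was SOX9 (-0.35, SE 0.07), which is not particular to osteoblasts. YAP targets had 7 of 21 lower (33.3%) and 1 higher.

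Signalling and developmental lists held calls in both directions. Growth factors and their receptors had 4 of 54 higher and 10 lower. PDGFC lay between 47.2 and 104 CPM in SoF and between 30.1 and 46.6 CPM in Ctrl, a difference of 0.96 (SE 0.09). It lies in the chromosome 4 window from 150000001, where 51.5% of genes were higher at a median of 0.37. FGF21 differed by -1.33 (SE 0.21). Wnt signalling had 6 of 36 higher and 3 lower. The receptor FZD3 and the target gene AXIN2 were higher by 0.94 (SE 0.12) and 0.68 (SE 0.09), and the ligand WNT5B was lower (-0.77, SE 0.14). FZD3 lies in the chromosome 8 window from 20000001, where 28.8% of genes were higher. TGF-beta and BMP signalling had 4 of 34 in each direction. Notch signalling had 3 of 16 lower and 0 higher, the receptors NOTCH1 and NOTCH3 and the glycosyltransferase LFNG (-0.61, SE 0.11). HOX genes had 6 of 30 lower and 0 higher, and 28 of the 30 lay below 0. Developmental transcription factors had 6 of 92 higher and 16 lower. Cancer-testis antigens had 9 of 36 lower (25%) and 0 higher. Potassium and calcium channels had 4 of 75 higher and 14 lower, among the latter KCND3 at -0.77 (SE 0.12).

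Further lists also held calls, to be read against 6.73% higher and 7.1% lower over all genes. Interferon-stimulated genes had 4 of 36 higher and 1 lower, with SAMD9 of chromosome 7 at 0.72 (SE 0.09). Cholesterol synthesis genes had 4 of 25 higher and 0 lower, with CYP51A1 of chromosome 7 at 0.40 (SE 0.07). In each of these 2 lists, 2 of the called members lay in 10 Mb windows with at least 40% of genes called in 1 direction. Cytosolic ribosomal proteins had 3 of 86 higher (3.49%) and 6 lower (6.98%), and zinc finger genes of chromosome 19 had 12 of 211 higher (5.69%) and 7 lower (3.32%). Nuclear lncRNAs and snoRNA host genes had 3 of 45 higher (6.67%) and 4 lower (8.89%). The ribosomal, zinc finger and lncRNA shares were thus near or below those over all genes. Of the 21 imprinted genes 1 was higher and 4 were lower, with PHLDA2 at -1.05 (SE 0.17). Of the 28 cadherins and integrins 5 were lower and 0 higher, with ITGB3 at -0.75 (SE 0.09). Hypoxia and glycolysis genes had 6 of 33 lower (18.2%) and 0 higher, and glutamate, GABA and synaptic adhesion genes had 4 of 55 higher (7.27%) and 6 lower (10.9%). The differences of the 13 mitochondrially encoded genes lay between -0.17 and 0.11. Among small lists of other cell types, 1 of 8 epithelial, 1 of 3 blood, 2 of 6 endothelial and muscle, 2 of 6 neural and melanocyte and 1 of 5 fat and cartilage members were called, in either direction.

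**Figure D4:**
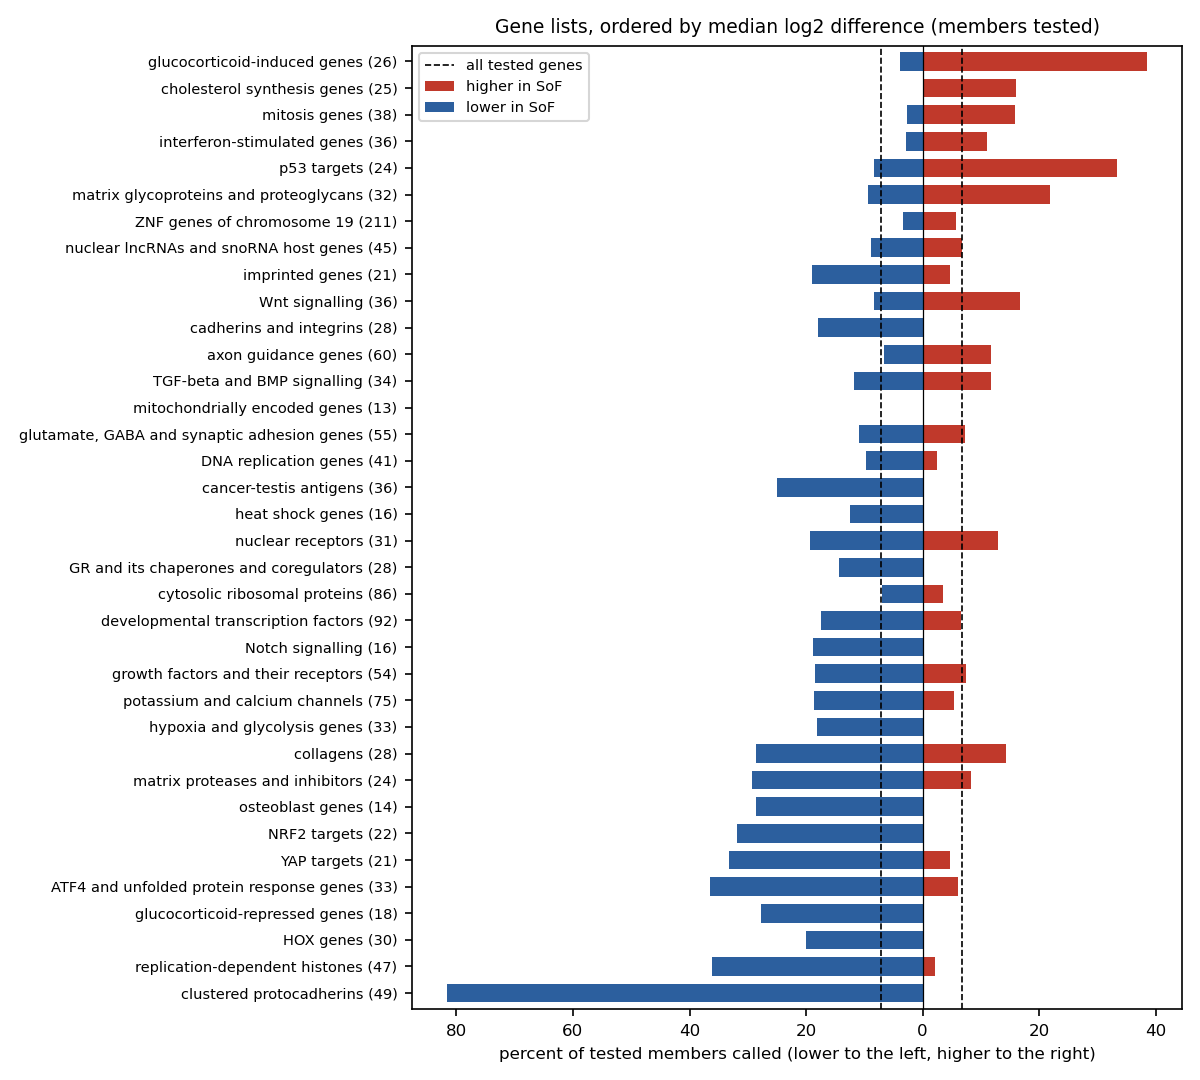
Percent of tested members called higher (right) or lower (left) in SoF for each list with at least 10 tested members, ordered by median log2 difference, with dashed lines at 6.73% and 7.1% for all genes. Clustered protocadherins reach 81.6% lower and glucocorticoid-induced genes 38.5% higher.

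Whether the line difference itself changed with time was tested with 2 libraries a line and time. A joint test of the 3 interaction terms of line and time called 3 of 20099 genes (0.0149%), with 279 (1.39%) at an unadjusted p under 0.05, while DESeq2's likelihood ratio test called 18. Genes not called are not thereby shown to be stable over time. TXNIP, an inhibitor of thioredoxin and of glucose uptake, held 10.8 and 15.1 CPM in SoF and 20.7 and 16.6 CPM in Ctrl at 0 h, and 71.2 and 67 CPM in SoF and 12.1 and 16.8 CPM in Ctrl at 3 h. Its log2 difference went from -0.55 at 0 h to 2.26 at 3 h (interaction adjusted p 0.00772 by edgeR). ADPRHL1, a heart-expressed member of the ADP-ribosylhydrolase family, went from -0.72 at 0 h to 0.67 at 3 h (adjusted p 0.0185 in that edgeR test), and its time-adjusted difference of 0.14 was not called. PDK4 had the larger level in SoF at every time, but the difference went from 1.83 at 0 h to 5.86 at 3 h (adjusted p 0.036 in that edgeR test). It held 3.16 and 6 CPM in SoF and 0.94 and 1.7 CPM in Ctrl at 0 h, and 81 and 74.6 CPM in SoF and 1.11 and 1.55 CPM in Ctrl at 3 h. The count of 3 was 0 without SoF 3 h replicate 1 or 2 or Ctrl 3 h replicate 1, 1 without SoF 1 h replicate 1 or 2, SoF 2 h replicate 1 or Ctrl 3 h replicate 2, and 6 without SoF 0 h replicate 1.

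**Figure D5:**
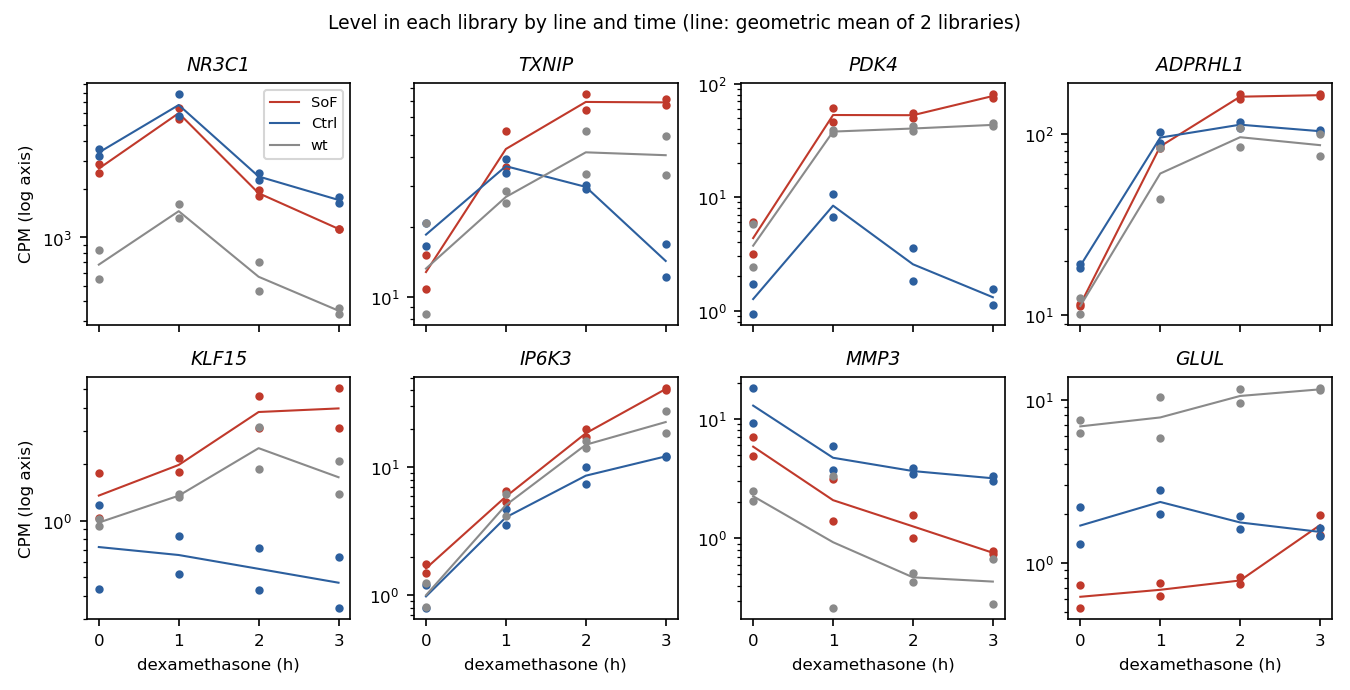
Level in CPM (log axis) of 8 genes in each library by line and hours of dexamethasone, with lines through the geometric mean of the 2 libraries. PDK4 at 3 h stands at 81 and 74.6 CPM in SoF and at 1.11 and 1.55 CPM in Ctrl. NR3C1 is highest at 1 h and lowest at 3 h in both SoF and Ctrl.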

How the data were processed

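RNA labelled with 4-thiouridine was sequenced in 24 libraries, 8 for each line. Per the labels and the study's methods, the authors handled molecular identifiers (UMIs) by UMI-tools (version 1.1.2), trimmed reads with Trim Galore (0.6.6), aligned them to hg38 with STAR (2.7.3a), removed duplicates and deposited raw counts of reads over exons per gene from featureCounts on GENCODE release 39, without pooling. The authors used DESeq2. Only the title of the table says that the counts are stranded. Gene names, types and positions were taken from GENCODE release 44, which matched 61415 of 61533 identifiers.

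Groups came from the labels. The members and gene lists were chosen with earlier results of these data known. Genes passing edgeR's filter by line (minimum count 10, minimum total 15) numbered 20099 of 46772 with a count. Counts were scaled by TMM and tested with edgeR's quasi-likelihood test (edgeR 4.0.16, limma 3.58.1, R 4.3.3) with line and time as additive terms over the 16 libraries, and a gene was called at a Benjamini-Hochberg adjusted p under 0.05. Positive differences are higher in SoF. Standard errors are the log2 difference divided by the root of the F statistic. Levels are CPM with TMM factors. Values against wt came from a fit of all 24 libraries, and the 2 comparisons against wt share the wt libraries with each other. The fit was tested on simulated data. Taken over genes together, replicate libraries differed by 6.16 to 20.5 times counting noise (as chi-square over its degrees of freedom). This was not read separately for genes of low level, where depth may limit precision.

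Named genes were, among called genes with a symbol, a mean of at least 1 CPM and no overlap between lines, the 10 with the largest difference in each direction and the 4 most abundant others past a log2 difference of 1. NR3C1, up to 3 called members of each list in each direction by smallest p, and the 3 genes with the smallest interaction p were added. EdgeR without time, with 8 groups, with all libraries, with replicate blocks, other scalings and filters, DESeq2 (1.42.0), limma with voom weights, subsets of times and leaving out libraries were tried as alternatives. The windows of 10 Mb, their alternatives and those for single times and protocadherins were chosen after seeing the data. No set test was run.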

Additional observations from a re-analysis of the deposited data

Results flagged for a closer look

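The 8 libraries of a line were read in 66 groups, most of them levels of a named gene and the rest library measures such as total counts. The highest or lowest library stood apart from the rest of its line in 7, all of named genes, where chance gives about 1 in 20. Levels were compared on the log2 scale with 0.1 CPM added. In Ctrl these were ANXA10 at 2 h replicate 1 (0.215 CPM), LINC02582 at 3 h replicate 2 (0.0912 CPM), SRGN at 3 h replicate 2 (0.0 CPM) and SARAF at 2 h replicate 2 (95.4 CPM). In SoF they were EMSLR at 0 h replicate 2 (0.0 CPM), MAGEA4 at 0 h replicate 1 (127.0 CPM) and C6orf15 at 3 h replicate 1 (3.51 CPM). The libraries pool the 4 times of a line. The 7 genes remained called without any single library, which their choice as called genes without overlap favours.

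The difference between SoF and Ctrl changed with time in 3 genes, by edgeR's quasi-likelihood test of the interaction with Benjamini-Hochberg adjustment. The adjusted p was 0.00772 for TXNIP, 0.036 for PDK4 and 0.0185 for ADPRHL1.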

How the results depend on the processing

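The 2779 called genes became 608 with time ignored, 190 with a minimum log2 difference of 1, and 0 in edgeR from the 0 h libraries only (580 at an unadjusted p under 0.05), where 4 libraries remained. Leaving out a library gave 2081 to 3740 genes, and DESeq2 and limma with voom weights gave 3035 and 2766. Called genes without overlap rose from 252 to 1083 when overlap was judged within each of the 4 times. Called list members numbered 337, with 78 when time was ignored, 0 from 0 h only and 260 to 430 without a library. The 3 interaction genes became 18 with DESeq2's likelihood ratio test and 0 to 6 without a library. Calls at 0, 1, 2 and 3 h ranged over 28 to 75, 32 to 57, 23 to 43 and 56 to 72 without a library. The 16 windows of higher genes became 1 with time ignored, 8 with 8 groups, 1 with no filter, 10 with a filter by group, 0 from 0 h only and 6 to 20 when libraries were left out. The 1 window of lower genes became 0 with time ignored, 8 groups, no filter or 0 h only, and 0 to 2 when libraries were left out. NR3C1 lost its call with time ignored (-0.29, adjusted p 0.812 in edgeR) and from 0 h only (-0.33, adjusted p 1 in edgeR), and ranged from -0.50 to -0.22 when libraries were left out. From 0 h only, TXNIP (-0.54), ADPRHL1 (-0.72), LHX4 (-0.08) and KRT14 (0.07) had the opposite sign, none called. The cause of these changes was not tested. The 28 genes named by size or rank of level kept their calls in 448 of 448 fits without 1 library, and in 840 of 868 results over all alternatives. They were picked from these same libraries as called genes without overlap, so the choice itself favours kept calls.

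Same-numbered SoF and Ctrl libraries deviated together with correlations of 0.638, -0.066, -0.0683 and 0.134 at 0, 1, 2 and 3 h, so the numbers were not taken as pairs. With a replicate block of 8 pairs 4287 genes were called, 16 with an interaction and 5 windows of lower genes, and with the replicate number as 1 term in the block 3337 genes and 2 such windows.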
